A study of Homo sapiens with 6 samples.

Results

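The aldo-keto reductases described here are 7 genes, AKR1A1, AKR1B1, AKR1B10, AKR1C1, AKR1C2, AKR1C3 and AKR7A2, of 27988 genes named in the files. They were taken by gene name from the transcript lines of each library, and the TPM (transcript abundance scaled for transcript length and library size) of a gene's reference transcripts were summed. All 7 reached 1 TPM in 3 or more libraries, the condition for testing, and so were among the 15647 genes tested. Total RNA came from HaCaT, an immortalised human keratinocyte line grown in high-glucose medium with serum. In one group the cells were transfected with 100 pmol of an siRNA against PSENEN (3 libraries), and in the other with a mismatch siRNA (3 libraries). PSENEN is a γ-secretase subunit gene, and the comparison addressed what its silencing does to gene expression in keratinocytes. The labels name 48 and 72 h as extraction times and do not say which of them was sequenced. They name no gene or sequence for the mismatch siRNA, and do not say whether the libraries of a group came from separate cultures. P-values therefore measure only the spread between these libraries, which may be technical.

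Aldo-keto reductases are cytosolic enzymes that reduce aldehydes and ketones with NADPH. AKR1C enzymes act on steroids and prostaglandins, AKR1B enzymes on sugars, lipid aldehydes and retinal, and AKR1A1 and AKR7A2 on many small aldehydes. In human epithelial cells several of these genes, those of the AKR1C and AKR1B10 loci among them, are known targets of NRF2, the transcription factor of the oxidative and electrophile stress response. In skin the AKR1C enzymes are known for local conversion of progesterone and androgens.

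Of the AKR1C copies, AKR1C1 and AKR1C2 are so alike that a short read often cannot be assigned to 1 of them. The sequences therefore come before the values. On GRCh38 the 3 genes lie side by side on chromosome 10, AKR1C1 at chr10:4963253-4983283 on the plus strand, AKR1C2 at chr10:4987400-5018031 on the minus strand and AKR1C3 at chr10:5035354-5107686 on the plus strand. The coding sequences of their main transcripts each have 969 bases. AKR1C1 and AKR1C2 differ at 19 of them (98.04% identical), AKR1C1 and AKR1C3 at 83, and AKR1C2 and AKR1C3 at 87. The stretch of 66 bases where AKR1C1 and AKR1C2 differ most is shown to make clear which bases can tell their reads apart. It is coding bases 97 to 162, in exon 2, at chr10:5001604-5001669 (minus strand) in AKR1C2, chr10:4965926-4965991 in AKR1C1 and chr10:5096422-5096487 in AKR1C3. Capitals mark bases of AKR1C2 that differ from AKR1C1, and bases of AKR1C1 or AKR1C3 that differ from AKR1C2. It holds 10 of the 19 differences between AKR1C1 and AKR1C2, and AKR1C3 differs from AKR1C2 there at 13 bases.
AKR1C2: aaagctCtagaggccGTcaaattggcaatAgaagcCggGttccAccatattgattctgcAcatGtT
AKR1C1: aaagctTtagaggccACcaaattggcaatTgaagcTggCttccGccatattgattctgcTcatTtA
AKR1C3: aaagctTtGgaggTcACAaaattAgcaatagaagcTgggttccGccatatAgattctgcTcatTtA

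The opposite case is the last 186 coding bases, 784 to 969, in exons 7 to 9, which AKR1C1 and AKR1C2 share without a difference. It lies at chr10:4989999-4995381 (minus strand) in AKR1C2, chr10:4972687-4977739 in AKR1C1 and chr10:5102588-5107500 in AKR1C3, introns included. Capitals mark the 18 bases of AKR1C3 that differ from the other copies.
AKR1C2: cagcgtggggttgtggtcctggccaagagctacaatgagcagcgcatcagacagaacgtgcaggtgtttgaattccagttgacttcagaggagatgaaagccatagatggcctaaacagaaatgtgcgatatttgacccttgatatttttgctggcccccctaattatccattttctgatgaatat
AKR1C1: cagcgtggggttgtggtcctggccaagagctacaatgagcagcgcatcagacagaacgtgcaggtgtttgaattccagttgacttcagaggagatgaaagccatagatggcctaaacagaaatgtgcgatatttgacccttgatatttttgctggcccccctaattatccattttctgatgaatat
AKR1C3: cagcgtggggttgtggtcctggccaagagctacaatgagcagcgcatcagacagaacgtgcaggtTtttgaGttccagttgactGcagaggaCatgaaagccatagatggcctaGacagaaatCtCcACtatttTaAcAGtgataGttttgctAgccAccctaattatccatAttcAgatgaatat

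Over all annotated transcripts, 47.3% of the 31-base words of AKR1C2 also occur in AKR1C1, and 35.1% of those of AKR1C1 occur in AKR1C2. AKR1C3 shares 7.17% of its words with any other gene. AKR1B10 shares 30.7% and AKR1B1 13.9%, AKR7A2 12.8% and AKR1A1 5.53%. A read from a shared word can be counted for either copy, so the split between AKR1C1 and AKR1C2 is uncertain. The sum of AKR1C1, AKR1C2 and AKR1C3 is therefore given as well.

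PSENEN, the targeted gene, had 1.75, 2.08 and 1.5 TPM in PSENEN siRNA libraries 1 to 3, against 6.58, 8.85 and 6.55 TPM in mismatch siRNA libraries 1 to 3. It fell by 1.58 on the log2(TPM + 1) scale (SE 0.18, adjusted p = 0.0472 by limma), a call that was lost without any 1 library (adjusted p 0.110 to 0.155). Estimated depth was 9.16 to 11.9 gigabases in PSENEN siRNA libraries against 11.5 to 15.6 gigabases in mismatch siRNA libraries. Depth differed between the groups with little overlap, and its part in the results was not tested. The files give no read counts, so no counting intervals are given. Across genes, libraries of the same group had Spearman correlations of 0.912 to 0.922, and libraries of different groups 0.902 to 0.913. Of the 14 keratinocyte markers all were tested and none passed the test. Their summed level was 4110 to 4856 TPM in PSENEN siRNA libraries and 4248 to 8673 TPM in mismatch siRNA libraries. For 7 of them, KRT5 among them, every PSENEN siRNA library lay below every mismatch siRNA library, a pattern that 13.7% of all genes tested showed. KRT5 averaged 1177 ± 210 TPM in PSENEN siRNA libraries and 2099 ± 618 TPM in mismatch siRNA libraries (SD, n = 3 each). Their part in the results below was not tested. Of markers of other cell types, 5 of 8 for fibroblasts, 5 of 6 for melanocytes, 4 of 6 for immune cells (PTPRC and CD3E among them), 2 of 5 for endothelium and 4 of 5 for hepatocytes had no transcript listed. The summed fibroblast markers, mostly COL1A1, reached at most 1.01 TPM in PSENEN siRNA libraries and 1.47 TPM in mismatch siRNA libraries. The immune markers, mostly CD74, which epithelial cells also express, summed to 11.2 to 16.8 TPM in PSENEN siRNA libraries and 12.4 to 21.4 TPM in mismatch siRNA libraries.

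None of the 7 aldo-keto reductases passed the test, at a Benjamini-Hochberg adjusted p under 0.05 in limma. In the same fit 64 of 15647 genes did, or 0.409%, with 20 higher and 44 lower in PSENEN siRNA libraries. The balance was 21 higher and 28 lower with median-of-ratios scaling. It turned without mismatch siRNA library 1 (7 higher, 3 lower), library 2 (9 higher, 4 lower) or library 3 (7 higher, 2 lower). At an unadjusted p under 0.05 there was 1 member, AKR1C2, and 2031 of all genes. The median difference was 0.02 over the 7 members and -0.04 over all genes tested, on the log2(TPM + 1) scale. AKR1C2 was the only member whose groups did not overlap, with every PSENEN siRNA library above every mismatch siRNA library. That pattern was found in 8.21% of all genes tested. The reverse, every PSENEN siRNA library below every mismatch siRNA library, was found in 13.7% of them and in no member. In simulated libraries at this replicate number, the test recovered 33% of 2-fold and 78% of 4-fold changes, so that most simulated 2-fold changes were missed. The simulation used normal noise, a spread taken from the fit and 200 changed genes, and recovery in the real libraries may differ. In bulk RNA, fewer cells with a transcript and less of it per cell cannot be told apart.

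**Figure D1:**
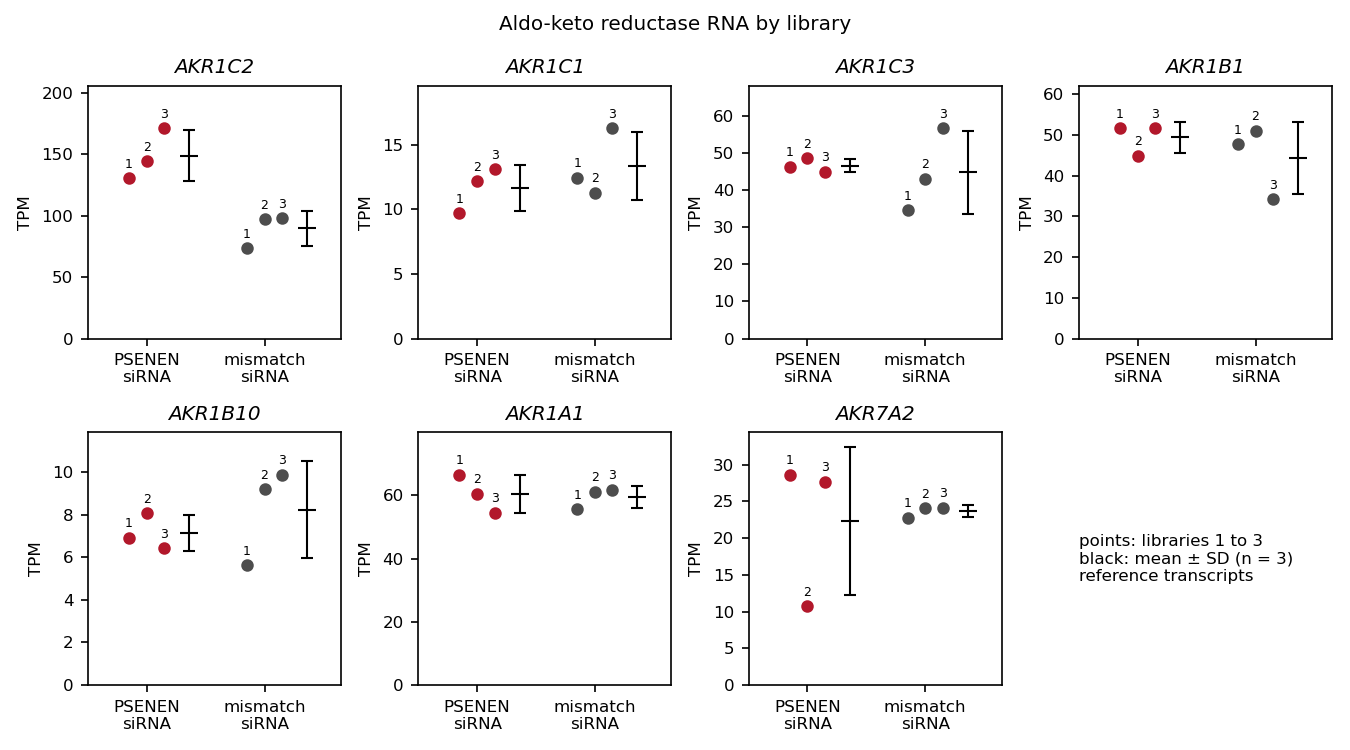
TPM of each aldo-keto reductase, summed over reference transcripts, in PSENEN siRNA libraries (red, left) and mismatch siRNA libraries (grey, right), with library numbers above the points and the mean ± SD (n = 3) in black, on axes that start at 0. In AKR1C2 the PSENEN siRNA libraries sit between 130 and 171 TPM and all mismatch siRNA libraries below 100 TPM, while the other 6 genes overlap.

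Averaged over the 6 libraries, AKR1C2 was the most abundant member at 119 TPM, followed by AKR1A1 at 60.1 TPM, AKR1B1 at 46.9 TPM and AKR1C3 at 45.8 TPM. AKR7A2 had 23.0 TPM, AKR1C1 12.5 TPM and AKR1B10 7.69 TPM. TPM are per transcript length, so these levels can be set beside each other, within the limit that shared sequence puts on the AKR1C copies. The ranges over libraries overlapped between AKR1B1 and AKR1C3, between AKR7A2 and AKR1C1 and between AKR1C1 and AKR1B10, and did not overlap between the other neighbours in this order. When unnamed assembled transcripts with an intron of the gene were added, the order was kept but AKR1C1 averaged 24.1 TPM beside 24.3 TPM for AKR7A2, and no longer overlapped AKR1B10 (7.95 TPM).

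AKR1C2 encodes the hydroxysteroid dehydrogenase that inactivates dihydrotestosterone. It had 130, 144 and 171 TPM in PSENEN siRNA libraries 1 to 3, against 73.4, 97.2 and 98.1 TPM in mismatch siRNA libraries 1 to 3. All PSENEN siRNA libraries were higher, and the lowest of them exceeded the highest mismatch siRNA library by a wide margin. AKR1C2 averaged 149 ± 20.8 TPM in PSENEN siRNA libraries and 89.6 ± 14 TPM in mismatch siRNA libraries (SD, n = 3 each), a ratio of 1.66. The difference was 0.73 on the log2(TPM + 1) scale (SE 0.16), with a limma p of 0.00375 and an adjusted p of 0.142, and so did not pass the test. It was positive in 24 of 24 alternative analyses, from 0.59 to 0.83, with adjusted p from 0.105 to 0.349. Because the groups did not overlap, many of these could not have turned the sign. This holds for a library left out and for another pseudocount, filter, trend setting or replicate block.

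The excess of AKR1C2 was carried mainly by its long coding transcript, ENST00000380753. This transcript had 127, 140 and 118 TPM in PSENEN siRNA libraries, against 73.3, 93.9 and 95.4 TPM in mismatch siRNA libraries. Its ratio of group means was 1.47. The high AKR1C2 sum of PSENEN siRNA library 3 came from ENST00000460124, a transcript annotated as retaining an intron. That transcript was estimated at 2.99, 3.63 and 53.0 TPM in PSENEN siRNA libraries, against 0, 3.12 and 2.52 TPM in mismatch siRNA libraries. The files give no error for the split of a gene's reads among its transcripts. AL391427.1, annotated antisense to AKR1C2, was at 0 or not listed in every library, and the strandedness of the libraries is not given in the sources used here.

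AKR1C1 encodes the enzyme that converts progesterone to a less active steroid. Its reference transcripts summed to 9.68, 12.2 and 13.1 TPM in PSENEN siRNA libraries, against 12.4, 11.3 and 16.3 TPM in mismatch siRNA libraries. The groups overlapped, and the difference was -0.18 on the log2(TPM + 1) scale (SE 0.19, adjusted p = 0.722 by limma). The sign depended on what was summed: it was 0.30 when assembled bases were scaled to the library total, and 0.51 when assembled transcripts with no reference name that share an intron with AKR1C1 were added. With them AKR1C1 had 26.4, 29.8 and 29.3 TPM in PSENEN siRNA libraries, against 17.4, 22.5 and 19.4 TPM in mismatch siRNA libraries. On this measure all PSENEN siRNA libraries were higher, and the difference still did not pass the test (SE 0.13, adjusted p = 0.160 by limma). The direction of AKR1C1 was therefore not settled by these files.

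The make-up of AKR1C1 differed between the groups. ENST00000380872, the full coding transcript, had 8.44, 11.1 and 6.39 TPM in PSENEN siRNA libraries, against 4.78, 6.33 and 4.26 TPM in mismatch siRNA libraries. The groups did not overlap, by the small margin between 6.39 and 6.33 TPM. The noncoding ENST00000477661 had 1.15, 0.44 and 5.81 TPM in PSENEN siRNA libraries, against 6.82, 4.87 and 11.3 TPM in mismatch siRNA libraries, and the groups overlapped. Assembled transcripts that share an intron with AKR1C1 summed to 16.7, 17.6 and 16.2 TPM in PSENEN siRNA libraries, against 4.95, 11.2 and 3.13 TPM in mismatch siRNA libraries. In PSENEN siRNA libraries they made up more of AKR1C1 than its reference transcripts did. One of them, at 5.53 TPM in PSENEN siRNA library 2, ran from AKR1C1 to the end of AKR1C3 (chr10:4963449-5107686), and 5 of its introns are annotated for AKR1C1.

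AKR1C2 also had 1 assembled transcript of this kind in every library, with 8 exons and all 7 introns annotated, most often at chr10:4989789-5003860. It had 38.7, 36.2 and 24.6 TPM in PSENEN siRNA libraries, against 13.2, 24.1 and 21.1 TPM in mismatch siRNA libraries. PSENEN siRNA library 3 and mismatch siRNA library 2 lay within 1 TPM of each other, and the groups did not overlap. With it, AKR1C2 summed to 169, 180 and 196 TPM in PSENEN siRNA libraries, against 86.7, 121 and 119 TPM in mismatch siRNA libraries. The difference was then 0.75 on the log2(TPM + 1) scale (SE 0.15, adjusted p = 0.105 by limma). In this fit 84 of 16261 genes passed the test, or 0.517%, and none of the 7 members did. Both AKR1C2 and AKR1C1 had every PSENEN siRNA library above every mismatch siRNA library, a pattern that 7.83% of all genes showed.

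AKR1C3 encodes a dehydrogenase that makes testosterone from androstenedione and reduces prostaglandins. It had 46.3, 48.7 and 45.0 TPM in PSENEN siRNA libraries, against 34.6, 43.1 and 56.8 TPM in mismatch siRNA libraries. All PSENEN siRNA libraries lay within the range of the mismatch siRNA libraries. The difference was 0.08 on the log2(TPM + 1) scale (SE 0.18, adjusted p = 0.876 by limma), and -0.08 without mismatch siRNA library 1.

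The transcripts of AKR1C3 divided differently in the groups although the sum was alike. ENST00000380554, the main coding transcript, had 44.7, 44.9 and 38.0 TPM in PSENEN siRNA libraries, against 20.6, 34.9 and 29.3 TPM in mismatch siRNA libraries. ENST00000605149 is a coding transcript that starts upstream at position 5077638 of chromosome 10. In all 3 PSENEN siRNA libraries it was at 0 or not listed, which the values used here do not tell apart. In mismatch siRNA libraries it had 11.9, 7.42 and 25.5 TPM, or 33.3% of the AKR1C3 mean. Of 26204 reference transcripts that reached 1 TPM in 3 or more libraries, 0.0611% were at 0 or not listed in all PSENEN siRNA libraries and had at least 5 TPM in all mismatch siRNA libraries. An exact 0 can be a failed estimate, so no ratio is given. The main coding transcripts of AKR1C1, AKR1C2 and AKR1C3 each had every PSENEN siRNA library above every mismatch siRNA library, which 6.98% of these reference transcripts showed. Their ratios of group means were 1.69 for AKR1C1, 1.47 for AKR1C2 and 1.51 for AKR1C3, with no test. The AKR1C3 ratio is that of a transcript in a gene whose sum overlapped between the groups. AKR1C1 and AKR1C2 share reads, so the 3 ratios are not independent.

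**Figure D2:**
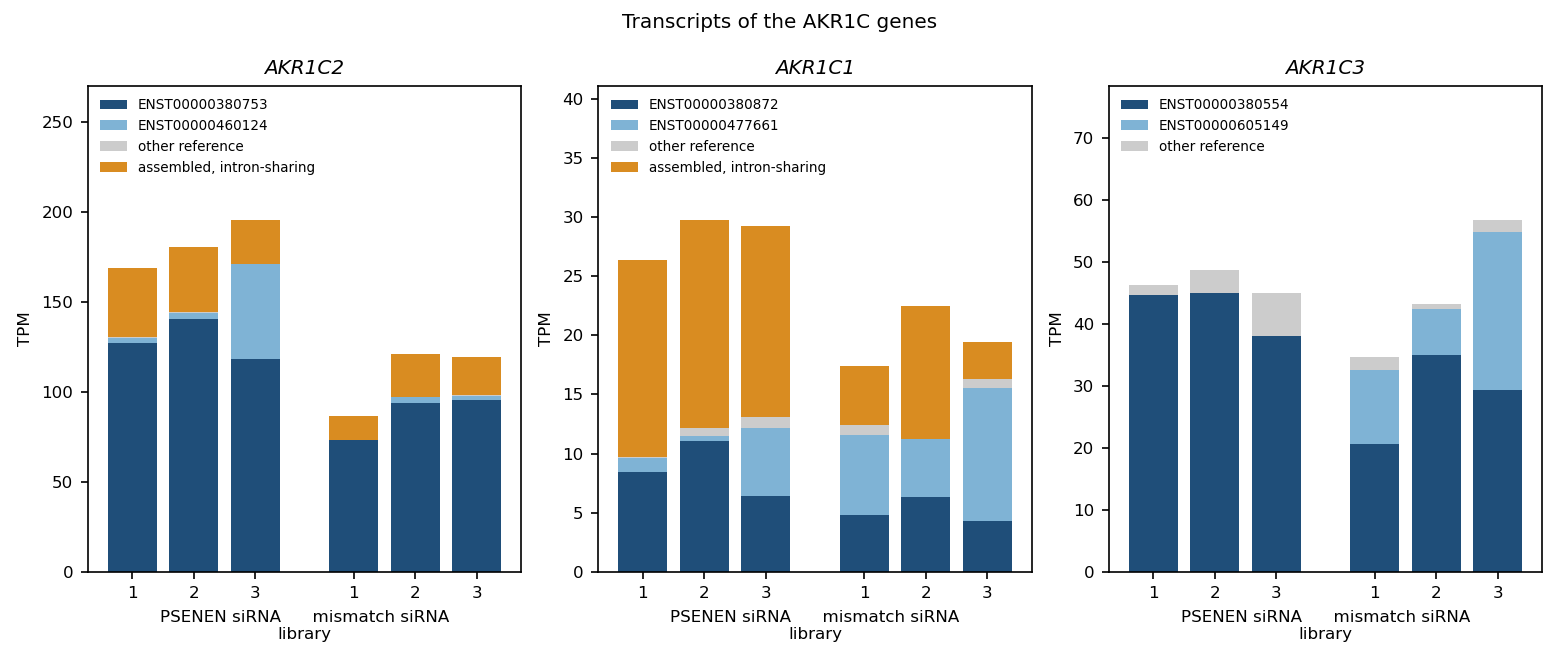
TPM per library for AKR1C2, AKR1C1 and AKR1C3, stacked from reference transcripts (blue and grey) and assembled intron-sharing transcripts (orange), with PSENEN siRNA libraries 1 to 3 on the left of each panel and mismatch siRNA libraries 1 to 3 on the right. The dark blue main coding transcript is taller in every PSENEN siRNA library for all 3 genes, by only 6.39 against 6.33 TPM at the nearest pair in AKR1C1. The light blue ENST00000605149 of AKR1C3 appears in mismatch siRNA libraries only, and the AKR1C3 sum overlapped between the groups.

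Because AKR1C1 and AKR1C2 share reads, the AKR1C sum was also read. AKR1C1, AKR1C2 and AKR1C3 together had 186, 205 and 229 TPM in PSENEN siRNA libraries, against 121, 152 and 171 TPM in mismatch siRNA libraries. The groups did not overlap. The sum averaged 207 ± 21.5 TPM in PSENEN siRNA libraries and 148 ± 25.5 TPM in mismatch siRNA libraries (SD, n = 3 each), a ratio of 1.40 with no test. AKR1C2 alone averaged 149 TPM in PSENEN siRNA libraries and 89.6 TPM in mismatch siRNA libraries. The sum therefore mostly repeats the AKR1C2 difference and is not a separate result. With intron-sharing transcripts the sum averaged 257 ± 14.3 TPM in PSENEN siRNA libraries and 174 ± 30.6 TPM in mismatch siRNA libraries, a ratio of 1.48. TPM are scaled by transcript length and the main transcripts differ in it (3756 bases for AKR1C2, 6705 for AKR1C1 and 1807 for AKR1C3), so this sum too depends in part on how reads were divided.

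AKR1C2 made up 70.0%, 70.3% and 74.7% of the AKR1C sum in PSENEN siRNA libraries, against 60.9%, 64.1% and 57.3% in mismatch siRNA libraries. AKR1C3 made up 24.9%, 23.7% and 19.6% in PSENEN siRNA libraries, against 28.7%, 28.5% and 33.2% in mismatch siRNA libraries. Neither share overlapped between the groups, and they still did not overlap with intron-sharing transcripts added. These are not separate results, because a higher AKR1C2 share of the same sum lowers the AKR1C3 share. The TPM of AKR1C3 itself overlapped between the groups. The AKR1C1 share averaged 5.61% ± 0.376 in PSENEN siRNA libraries, against 9.09% ± 1.49 in mismatch siRNA libraries by reference transcripts (SD, n = 3 each). With intron-sharing transcripts it averaged 11.1% ± 0.362 in PSENEN siRNA libraries, against 11.5% ± 1.39 in mismatch siRNA libraries, and overlapped. The shares of AKR1C1 and AKR1C2 rest on the division of reads between near-identical copies. AKR1C3 shares fewer words with them, but its share is of a sum that holds both.

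The RefSeq promoter windows (GRCh38.p14) of AKR1C1 and AKR1C2 share 245 of 246 aligned bases in the 250 bases before the start (99.6%). The AKR1C3 windows that begin at 5048531 and 5094164 share 77.2% and 79.1% of aligned bases with AKR1C2. TGACNNNGC, a core of the element that NRF2 binds, was searched on both strands of the whole windows, 250 bases before and 50 after the start. CCAAT was searched in the same way. Among the members with a window, only AKR7A2 held TGACNNNGC, as did 13.3% of 35116 windows. CCAAT, read on the opposite strand, stands in the windows of AKR1C1, AKR1C2 and AKR1C3, and 34.6% of all windows hold CCAAT on either strand. Both AKR1B1 windows, which overlap, hold the same CCAAT, at -98 from the start of one and at 41 past the start of the other. A match is a description of these letters only.

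AKR1B1, aldose reductase, turns glucose into sorbitol and is annotated at chr7:134442350-134459284 on the minus strand. It had 51.6, 44.9 and 51.7 TPM in PSENEN siRNA libraries, against 47.7, 51.0 and 34.2 TPM in mismatch siRNA libraries. Mismatch siRNA library 3 was lower than the other 5, which lay close together. The difference was 0.17 on the log2(TPM + 1) scale (SE 0.17, adjusted p = 0.706 by limma), and -0.001 without that library. Its main transcript ENST00000285930 carried 70.2% of AKR1B1 in PSENEN siRNA libraries, against 70.0% in mismatch siRNA libraries.

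AKR1B10, which reduces retinal and lipid aldehydes, is annotated at chr7:134527592-134541408 on the plus strand. It had 6.93, 8.08 and 6.43 TPM in PSENEN siRNA libraries, against 5.63, 9.20 and 9.89 TPM in mismatch siRNA libraries. The groups overlapped, with mismatch siRNA library 1 the lowest of all. The difference was -0.15 on the log2(TPM + 1) scale (SE 0.23, adjusted p = 0.799 by limma). AKR1B1 and AKR1B10 together averaged 56.5 ± 3.09 TPM in PSENEN siRNA libraries and 52.6 ± 8.10 TPM in mismatch siRNA libraries (SD, n = 3 each).

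AKR1A1, the general aldehyde reductase, is annotated at chr1:45550543-45570049 on the plus strand. It had 66.6, 60.5 and 54.6 TPM in PSENEN siRNA libraries, against 55.7, 61.3 and 61.8 TPM in mismatch siRNA libraries. The mismatch siRNA libraries lay within the range of the PSENEN siRNA libraries. The difference was 0.02 on the log2(TPM + 1) scale (SE 0.11, adjusted p = 0.954 by limma), and it was below 0 without PSENEN siRNA library 1 (-0.05) or mismatch siRNA library 1 (-0.03). ENST00000621846 was the largest of 11 AKR1A1 transcripts, with 50.2% of the gene in PSENEN siRNA libraries, against 61.2% in mismatch siRNA libraries.

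AKR7A2, which reduces aldehydes such as succinic semialdehyde and an aflatoxin product, is annotated at chr1:19303965-19312146 on the minus strand. It had 28.7, 10.8 and 27.7 TPM in PSENEN siRNA libraries, against 22.8, 24.1 and 24.2 TPM in mismatch siRNA libraries. PSENEN siRNA library 2 was lower than all others, and the remaining PSENEN siRNA libraries were above all mismatch siRNA libraries. The difference was -0.20 on the log2(TPM + 1) scale (SE 0.36, adjusted p = 0.849 by limma), and 0.24 without PSENEN siRNA library 2. The low value lay in the main transcript ENST00000235835, with 25.89, 10.48 and 27.10 TPM in PSENEN siRNA libraries, against 22.2, 23.0 and 22.4 TPM in mismatch siRNA libraries.

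**Figure D3:**
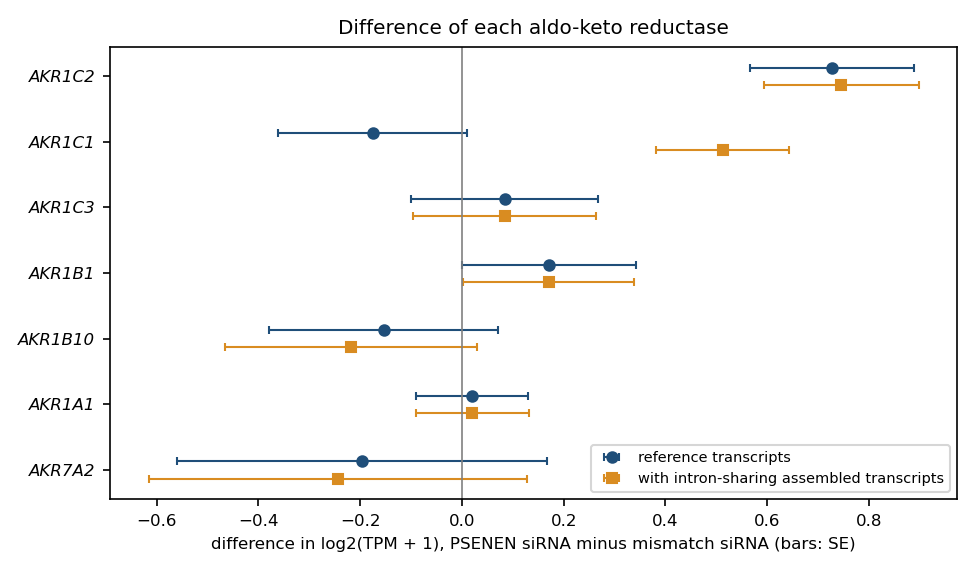
Difference in log2(TPM + 1), PSENEN siRNA minus mismatch siRNA, with its SE for each aldo-keto reductase, from reference transcripts (blue circles) and with assembled intron-sharing transcripts added (orange squares). AKR1C2 lies at 0.73 and 0.75, AKR1C1 lies at -0.18 and 0.51 on opposite sides of 0, and none of the 7 passed the adjusted test on either measure.

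The protein-coding genes whose pattern over the 6 libraries was most like that of AKR1C2, which was both the most abundant member and that with the largest difference, were DPYD, COMTD1 and PTPRU. Likeness was the root mean square difference of log2(TPM + 1), each gene centred on its mean, among 8286 genes of at least 5 TPM on average. It was 0.0679 for DPYD, 0.0785 for COMTD1 and 0.109 for PTPRU, against a median of 0.497 over all genes compared. DPYD, which breaks down pyrimidines, averaged 8.22 ± 1.45 TPM in PSENEN siRNA libraries and 4.34 ± 0.822 TPM in mismatch siRNA libraries (SD, n = 3 each).

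Of 11 other genes of the superfamily, 6 had no transcript listed, and only KCNAB2, a potassium channel β subunit, was tested. KCNAB2 had 4.56, 2.71 and 2.79 TPM in PSENEN siRNA libraries, against 1.99, 2.69 and 3.75 TPM in mismatch siRNA libraries. The groups overlapped.

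Of 24 tested NRF2 targets other than aldo-keto reductases (26 listed), none passed the test, 12 differences were above 0 and 12 below, and the median was -0.02 against -0.04 over all genes. Of 9 genes for NRF2 and its regulators none passed, 3 were above 0 and 6 below, and the median was -0.17. With intron-sharing transcripts added, 1 target, GCLC, and 1 regulator, SQSTM1, passed as higher, and none as lower. Both calls were lost without any 1 library, at adjusted p of 0.0851 to 0.126 for GCLC and 0.0746 to 0.147 for SQSTM1 by limma.

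GCLC, the catalytic subunit of the enzyme that starts glutathione synthesis, had 75.8, 87.5 and 89.2 TPM in PSENEN siRNA libraries, against 45.8, 48.8 and 41.4 TPM in mismatch siRNA libraries. All PSENEN siRNA libraries were higher. The difference was 0.88 (SE 0.11, adjusted p = 0.0506 by limma) from reference transcripts and 0.97 (adjusted p = 0.0314) with intron-sharing transcripts. GCLM, the regulatory subunit of the same enzyme, had 17.25, 17.21 and 15.01 TPM in PSENEN siRNA libraries, against 18.7, 20.8 and 22.9 TPM in mismatch siRNA libraries. Its difference of -0.32 did not pass the test (adjusted p = 0.371 by limma).

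SQSTM1 encodes p62, which binds KEAP1. Its reference transcripts had 542, 223 and 204 TPM in PSENEN siRNA libraries, against 350, 166 and 99.4 TPM in mismatch siRNA libraries, and overlapped. With intron-sharing transcripts it had 545, 612 and 666 TPM in PSENEN siRNA libraries, against 350, 316 and 287 TPM in mismatch siRNA libraries. On that measure SQSTM1 was higher by 0.93 (SE 0.12, adjusted p = 0.0398 by limma).

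NQO1, a quinone reductase and standard NRF2 target, did not pass the test on either measure. With intron-sharing transcripts NQO1 had 39.4, 39.3 and 41.1 TPM in PSENEN siRNA libraries, against 59.1, 55.8 and 58.9 TPM in mismatch siRNA libraries, a difference of -0.52 (adjusted p = 0.0680 by limma). By reference transcripts mismatch siRNA library 2 had only 17.8 TPM of NQO1, and the difference was 0.01. HMOX1, heme oxygenase, averaged 2.55 ± 0.289 TPM in PSENEN siRNA libraries and 3.39 ± 0.683 TPM in mismatch siRNA libraries (SD, n = 3 each). TXNRD1, thioredoxin reductase, averaged 62.3 ± 31.1 TPM in PSENEN siRNA libraries and 63.0 ± 24.8 TPM in mismatch siRNA libraries. NFE2L2, which encodes NRF2, averaged 55.7 ± 1.33 TPM in PSENEN siRNA libraries and 62.3 ± 5.65 TPM in mismatch siRNA libraries. KEAP1, its inhibitor, averaged 33.4 ± 6.43 TPM in PSENEN siRNA libraries and 40.7 ± 3.53 TPM in mismatch siRNA libraries. None of HMOX1, TXNRD1, NFE2L2 and KEAP1 passed the test on either measure. FTH1, ferritin heavy chain and the most abundant target, was at 12.5 TPM in mismatch siRNA library 1 by reference transcripts and at 3369 TPM with intron-sharing transcripts.

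**Figure D4:**
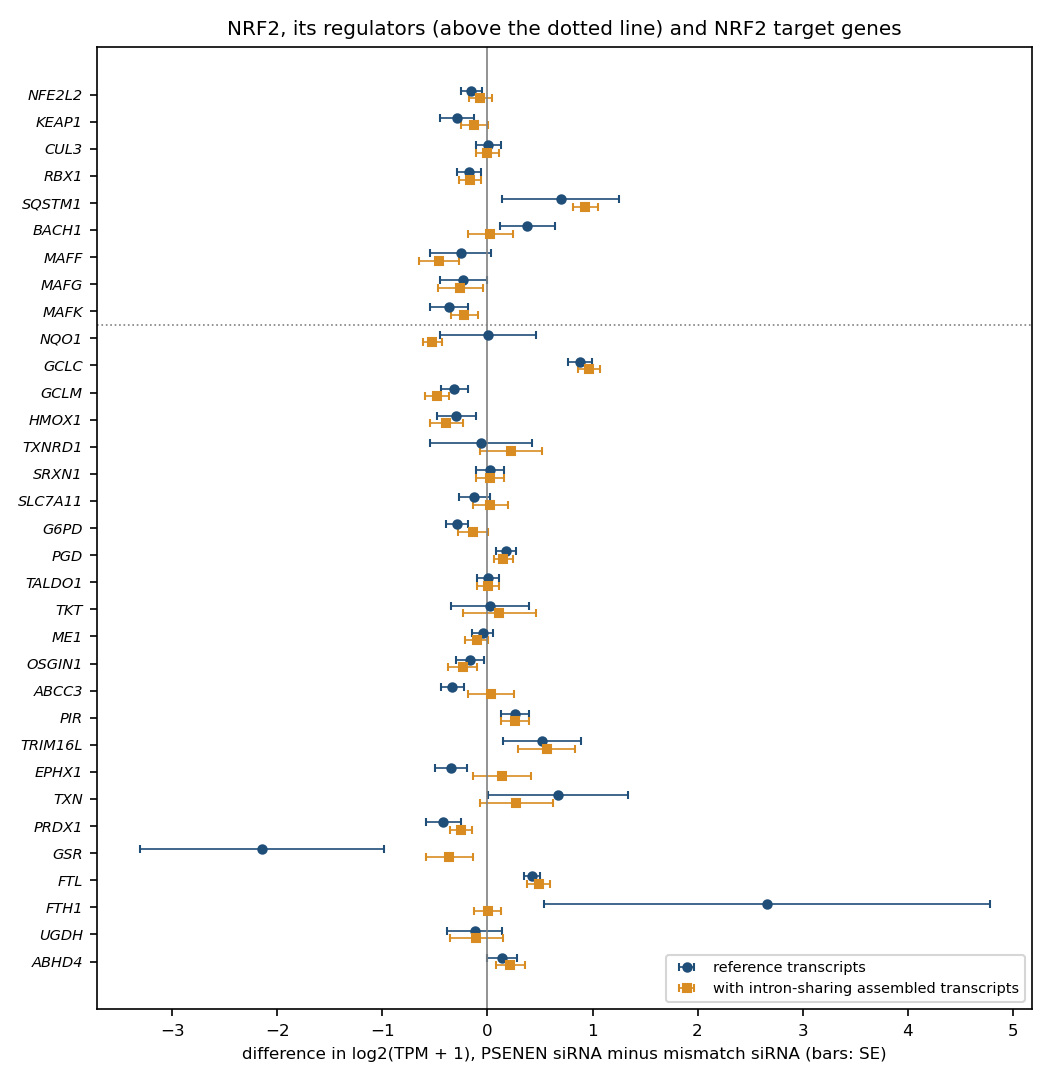
Difference in log2(TPM + 1), PSENEN siRNA minus mismatch siRNA, with its SE for NRF2 and its regulators (above the dotted line) and NRF2 targets other than aldo-keto reductases, from reference transcripts (blue circles) and with intron-sharing transcripts (orange squares). GCLC and SQSTM1 lie near 0.9 on the second measure, NQO1, GCLM and HMOX1 lie below 0 on it, and the wide bar of FTH1 on the first rests on mismatch siRNA library 1 at 12.5 TPM.

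Genes that share the substrates or the cofactor of aldo-keto reductases did not pass the test. Of 21 tested genes for other aldehyde and carbonyl clearing enzymes, 11 were above 0 and 10 below, with a median of 0.02. ALDH1A3, which makes retinoic acid and is the most abundant of them, had 74.5, 76.2 and 85.4 TPM in PSENEN siRNA libraries, against 138, 96.3 and 122 TPM in mismatch siRNA libraries. All PSENEN siRNA libraries were lower, at a difference of -0.57 (SE 0.15, adjusted p = 0.206 by limma). ALDH1A1, which also makes retinoic acid and was named after its values were seen, differed the other way, with 9.66, 8.64 and 7.17 TPM in PSENEN siRNA libraries, against 0.893, 2.44 and 4.35 TPM in mismatch siRNA libraries. All PSENEN siRNA libraries were higher, at a difference of 1.53 (SE 0.38, adjusted p = 0.184 by limma), which did not pass the test either. ALDH1A3 is also in the retinoid list, where 5 of 10 tested genes were above 0 and 5 below, with a median of -0.07. In that list 5 tested genes, ALDH1A3 among them, had every PSENEN siRNA library below every mismatch siRNA library, and 0 had every one above. Of all genes tested, 13.7% lay below in this way and 8.21% above. Of 8 tested steroid conversion genes 3 were above 0 and 5 below (median -0.08), of 7 tested prostaglandin genes 3 were above 0 and 4 below (median -0.13), and of 14 genes for NADPH supply 8 were above 0 and 6 below (median 0.01). The most abundant of each were HSD17B4, PTGES3 and TKT, whose groups overlapped. With intron-sharing transcripts 1 gene of these lists passed, PTGS1, a cyclooxygenase named after its values were seen, with 1.31, 0.83 and 2.02 TPM in PSENEN siRNA libraries, against 5.43, 6.61 and 6.22 TPM in mismatch siRNA libraries. PTGS1 was lower on that measure (adjusted p = 0.0467 by limma), a call lost without any 1 library (0.0978 to 0.173). By reference transcripts mismatch siRNA library 1 had only 0.71 TPM of PTGS1, and the groups overlapped (adjusted p = 0.575 by limma).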

How the data were processed

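Each of the 6 files the authors deposited is a StringTie assembly of 1 library, per the file headers, with TPM, FPKM and coverage per transcript. The submitters' processing notes name Bowtie 0.12.2 with mm8 and mm9, builds of the mouse genome, although the files are human. Of 92476 reference transcripts, 98.1% had the GENCODE 29 (GRCh38) position. The aligner, the StringTie version and whether strand was kept were not given in the sources used here. TPM were summed per gene over reference transcripts and compared as log2(TPM + 1) by limma 3.58.1 (R 4.3.3), its variance trend following intensity. Genes had to reach 1 TPM in 3 or more libraries; the fit had 4 residual degrees of freedom, with Benjamini-Hochberg adjustment over all 15647 genes. A simulation with 200 changed genes gave 114 calls, 3 of them false. Fold changes on this scale understate changes of low genes. Members and lists were chosen with earlier results of these data known. Named are all members, the called or else most abundant gene of each list, 8 NRF2 pathway genes, PSENEN and the 3 genes most like AKR1C2. Alternatives are given in the closing section. Python 3.11.15, NumPy 2.4.6, pandas 2.3.3 and matplotlib 3.10.9 were used otherwise.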

Additional observations from a re-analysis of the deposited data

How the results depend on the processing

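No aldo-keto reductase passed the test in any of 24 alternatives, of which 7 (assembled transcripts added together with the replicate block or with a library left out) were chosen after seeing the data. AKR1C2 and AKR1B10 kept their direction in all 24. For AKR1C2, whose groups did not overlap, leaving out a library could not turn it. AKR1C1 turned to 0.302 with assembled bases scaled to the library total, to 0.512 with intron-sharing transcripts, to 0.512 with these and the replicate block, and to 0.429 to 0.604 with these and a library left out, against -0.280 to -0.033 without them. Leaving out 1 library, with or without intron-sharing transcripts, moved AKR1A1 over -0.050 to 0.092, AKR1B1 over -0.001 to 0.281, AKR1C3 over -0.084 to 0.265 and AKR7A2 over -0.494 to 0.240 (-0.427 to 0.240 by reference transcripts alone). Against 64 genes that passed the test in all 6 libraries by reference transcripts, the count was 28 with a pseudocount of 0.1, 109 with assembled bases, 7 to 16 with a library left out, and 9 to 12 with a library left out and intron-sharing transcripts. The replicate block gave 1 gene, or 6 with intron-sharing transcripts. Same-numbered libraries did not deviate together across genes (r -0.0489, 0.0001 and -0.0142). These correlations cannot exclude that the numbers pair libraries with small shared effects. The call of PSENEN was lost with the replicate block (adjusted p = 0.306), a pseudocount of 0.1 (0.0542), no filter on low values (0.0725) and a minimum of 5 TPM (0.0544). GCLC passed in 5 of 17 alternatives. NQO1 turned to -0.012 with a pseudocount of 5, to -0.525 with intron-sharing transcripts and over -0.551 to 0.289 with a library left out. TXNRD1 turned to 0.009 with FPKM, to 0.222 with intron-sharing transcripts and over -0.436 to 0.372 with a library left out. HSD17B4 (0.039) and KCNAB2 (-0.181) turned with assembled bases, and TKT ranged over -0.309 to 0.208 with a library left out. The causes were not tested. No scaling moved the median of all genes by over 0.1.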
